A study of Canis lupus familiaris with 6 samples.

Results

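SNAI2, VIM and S100A4 are genes of the epithelial to mesenchymal transition, followed here in MDCK-II cells in which a short hairpin RNA against scribble was switched on with tetracycline (Tet). They were taken by name, and every array probe whose accession is a dog RefSeq transcript of one of them was used. They are 3 of the 1436 genes with a named probe on the array, and they have 4 of its 43584 usable probes, 1 for SNAI2, 2 for VIM and 1 for S100A4. The 3 genes were chosen by the difference in their levels between cells with and without Tet, so that difference is described below and carries no test.

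MDCK-II is a kidney tubule epithelial line of the dog, and scribble is a scaffold protein of the basolateral membrane that helps set apicobasal polarity. All 6 arrays hold RNA of the same hairpin line, scribKD. With Tet, cells received 5 µg/ml and RNA was taken 30, 45 and 60 h later, on 1 array per time. Without Tet, cells of the same line were grown for the same 3 times, again on 1 array each. Each array carries RNA mixed from 3 wells, no condition has a replicate array, and spreads below are over times or are the scanner program's own error of a spot. No array holds Tet-treated cells that lack the hairpin, so the drug and the hairpin cannot be told apart, and the scribble gene has no named probe here. In RNA of whole wells, fewer cells making a transcript and less of it per cell cannot be told apart either.

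In the transition from an epithelial to a mesenchymal state, cells lose junctions and apicobasal polarity and gain motility. SNAI2, also called Slug, is a zinc-finger repressor of the Snail family that binds E-box sequences and is known to repress E-cadherin and other junction genes. VIM encodes vimentin, the intermediate filament protein of mesenchymal cells, which cultured MDCK cells make alongside their keratins. S100A4 encodes a small calcium-binding protein that binds nonmuscle myosin and is also known as fibroblast-specific protein.

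On each array 64.3% to 68.8% of non-control spots were well above background and none was saturated. Levels are given as log2 of the processed spot signal relative to the array's 75th percentile, which lay between 581 and 637 units of signal. The 30 h pair lies on slide 1 and the 60 h pair on slide 2, while at 45 h the array with Tet is on slide 2 and the array without Tet on slide 1. Of the 9 kidney epithelial markers with a named probe, 9 were well above background on all arrays, E-cadherin, occludin, cingulin and keratin 19 among them. Among 5 fibroblast markers, decorin was not well above background on any array, and COL1A1, COL1A2, THY1 and PDGFRB were. Of 5 endothelial markers, KDR and VWF have a named probe, and both were well above background on all arrays. None of the 7 leukocyte markers looked up has a named probe here.

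SNAI2 had the farthest reach of the 3 genes. Its level stood at -2.59, -2.02 and -0.96 at 30, 45 and 60 h with Tet, against -2.48, -3.01 and -3.55 without Tet. The spot signals behind these were 106, 152 and 299 units with Tet and 114, 76.4 and 50.2 units without Tet, well above background on all 6 arrays. The arms began together and then parted, the level going up at each step with Tet and down at each step without Tet, so that the groups overlapped at 30 h alone. At 30 h the difference, with minus without Tet, was -0.10, inside the scanner error of that difference, 0.21. At 45 h it was 0.99, or 1.98-fold higher with Tet, and at 60 h it was 2.60, or 6.04-fold higher with Tet, with scanner errors of 0.21 each.

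**Figure D1:**
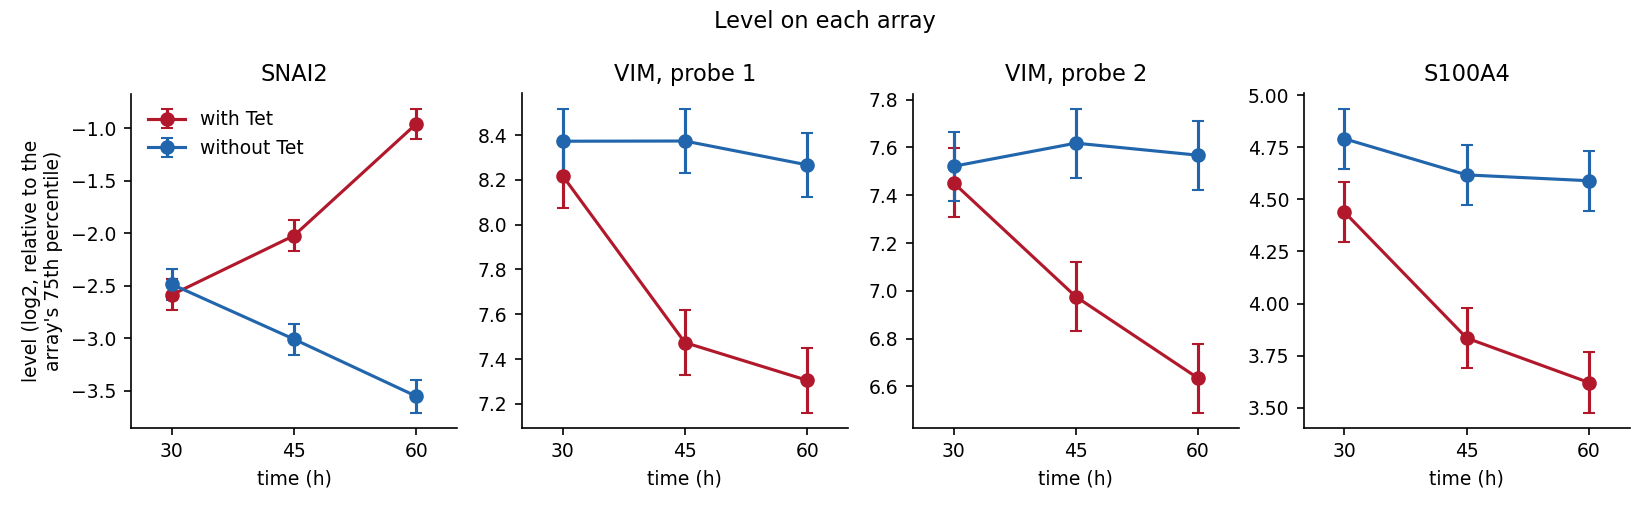
Level of SNAI2, of each VIM probe and of S100A4 on every array (log2 relative to the array's 75th percentile) against time in hours, with Tet in red and without Tet in blue; bars are the scanner program's error of the spot and each panel has its own vertical scale. SNAI2 goes up with Tet and down without it, while VIM and S100A4 go down with Tet and stay within a narrow band without it.

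Both arms had a part in the SNAI2 difference. The change in its level from 30 to 60 h was 1.63 with Tet, 3.09-fold up, and -1.07 without Tet, 2.10-fold down. The 2 steps that lie within 1 slide showed the same directions, 1.07 from 45 to 60 h with Tet and -0.52 from 30 to 45 h without Tet. In the order of the 6 levels, the 60 h array with Tet was highest, followed by the 45 h array with Tet, the 30 h pair, the 45 h array without Tet and the 60 h array without Tet. Only the 2 arrays of the 30 h pair, 0.10 apart, were closer than the scanner error of their gap; the other neighbours were 0.42 to 1.07 apart, against errors of about 0.21. Going up at both steps with Tet and down at both without was seen for 3.43% of the 27581 features tested, a feature being a named gene by its brightest probe or a probe with no name.

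The mean SNAI2 difference over the 3 times was 1.16 ± 1.36 (SD, 3 pairs of arrays), the wide spread being the divergence with time. Without the 60 h arrays that mean was 0.44, and without the 30 h arrays it was 1.79. At 60 h, 28 of the 27581 features, or 0.102%, stood as far up as SNAI2 or farther, 4 of them named. SNAI2 was the dimmest of the 3 genes on these arrays, and with normexp background correction and an offset of 50 its differences were -0.06, 0.68 and 1.73.

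VIM, in contrast, was lower with Tet. On its brighter probe the level stood at 8.22, 7.47 and 7.31 at 30, 45 and 60 h with Tet, against 8.37, 8.37 and 8.27 without Tet. On the second probe it stood at 7.45, 6.98 and 6.63 with Tet, against 7.52, 7.62 and 7.57 without Tet. On both probes the 3 arrays with Tet lay below the 3 without, a pattern that 10.4% of all tested features showed. The brighter probe gave differences of -0.15, -0.90 and -0.96, or 1.11-, 1.87- and 1.95-fold lower with Tet. The second gave -0.07, -0.64 and -0.93, or 1.05-, 1.56- and 1.91-fold lower. The scanner error of each was 0.20, so that the 30 h differences lay inside it and the later ones outside.

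With Tet the change in VIM level was -0.74 from 30 to 45 h and -0.17 from 45 to 60 h on the brighter probe, and -0.48 and -0.34 on the second. Going down at both steps with Tet was seen for 29.6% of all tested features. Without Tet the change from 30 to 60 h was -0.11 on the brighter probe and 0.05 on the second. Most of the change in VIM with time was thus in the cells with Tet, whereas the SNAI2 changes exceeded 1 on the log2 scale in both arms, in opposite directions. The ratio of the 2 probes' signals was lowest, 1.41, on the 45 h array with Tet and ran from 1.59 to 1.80 on the other 5, and that array is the 1 of its pair on the other slide. VIM signals reached 211200 units, and the highest signal on any array was 414525 units, with no spot saturated.

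S100A4 followed VIM closely. Its level was 4.44, 3.83 and 3.62 at 30, 45 and 60 h with Tet, against 4.79, 4.62 and 4.59 without Tet. The 3 arrays with Tet again lay below the 3 without. The differences were -0.35, -0.78 and -0.97, or 1.28-, 1.72- and 1.96-fold lower with Tet, each with a scanner error of 0.20. The change from 30 to 60 h was -0.82 with Tet and -0.20 without Tet.

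**Figure D2:**
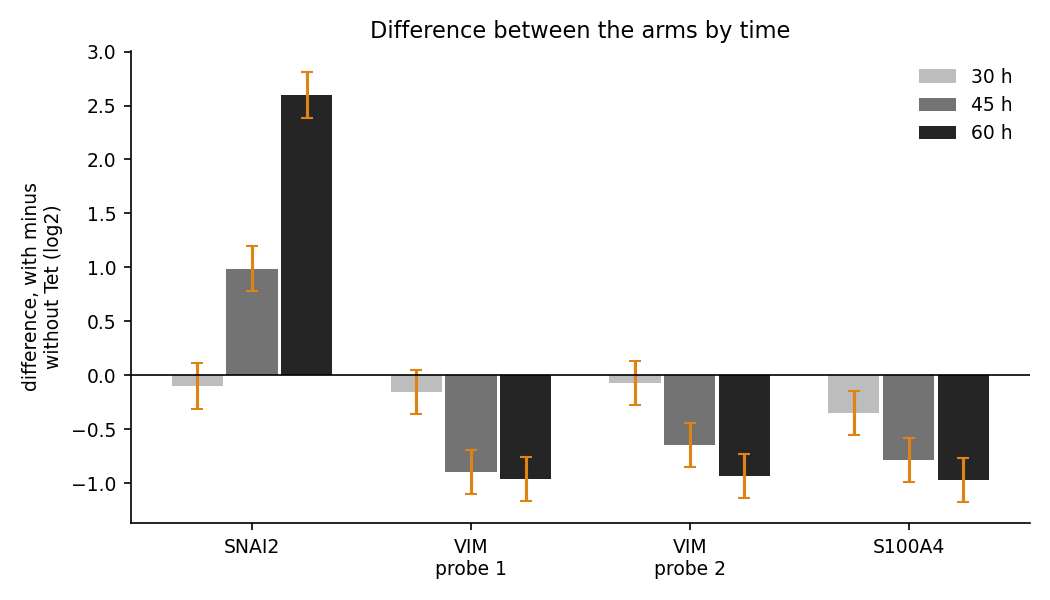
Difference in level, with minus without Tet (log2), for SNAI2, both VIM probes and S100A4 at 30, 45 and 60 h; bars start at 0 and orange error bars are the scanner program's error of the difference. SNAI2 reaches 2.60 at 60 h, while VIM and S100A4 lie between -0.97 and -0.93 there.

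The mean difference over the times was -0.67 ± 0.45 for the brighter VIM probe, -0.55 ± 0.44 for the second and -0.70 ± 0.32 for S100A4 (SD, 3 pairs of arrays). In the order of levels, the 3 arrays without Tet and the 30 h array with Tet followed each other at gaps under the scanner error for both genes. A larger gap, 0.74 and 0.48 on the VIM probes and 0.60 for S100A4, separated them from the 45 and 60 h arrays with Tet. That gap is the step from 30 to 45 h with Tet, which also goes from slide 1 to slide 2. Within slide 2, the step from 45 to 60 h with Tet was -0.17 and -0.34 on the VIM probes and -0.21 for S100A4, against scanner errors of 0.20. The 60 h differences given above lie within slide 2. At 60 h 856 of the tested features stood as far down as VIM or farther and 845 (3.06%) as far down as S100A4, against the 28 given above for SNAI2 on the other side. VIM and S100A4 were each lower at all 3 times and further apart at each, which 10.3% of all tested features were. These shares come from the contrast by which the genes were picked, and only place them among the rest.

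**Figure D3:**
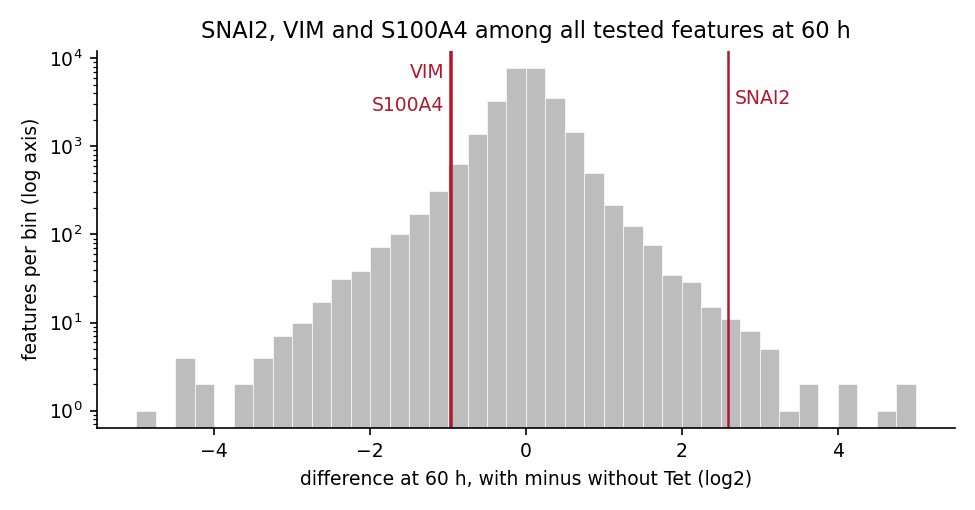
Number of tested features (log axis, bins of 0.25, values beyond either end counted in the last bin) by their difference at 60 h, with minus without Tet (log2), with red lines at SNAI2, VIM and S100A4. VIM and S100A4 nearly coincide at -0.96 and -0.97 on the shoulder of the distribution, and SNAI2 lies far in its upper tail.

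Across the 6 arrays the levels of VIM and S100A4 correlated at 0.99, and SNAI2 correlated with VIM at -0.85 and with S100A4 at -0.83 (Pearson's r, 6 arrays that share arms and times, given as a description). Mesenchymal genes by name thus lay on opposite sides, SNAI2 above and VIM and S100A4 below, on the 45 and 60 h arrays with Tet.

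Time in culture, averaged over the arms, is a contrast that did not choose these genes. The change from 30 to 60 h was -0.51 ± 0.17 for S100A4, -0.51 ± 0.23 for VIM and 0.28 ± 0.65 for SNAI2 (SE, 2 arrays per time). With limma the adjusted p-values were 0.132, 0.214 and 0.799, so none of the 3 passed the threshold of 0.05. In the same fit 3.97% of all tested features rose and 4.21% fell, 2254 in all, and without the 45 h arrays 0 did either. The averages hide unequal arms, as the values above show, and this contrast also compares slide 2 with slide 1.

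The other genes of the transition were read from 6 lists, of which 41 genes besides SNAI2, VIM and S100A4 were measured and tested for the difference between the arms. With limma 0 of the 27581 features, and so 0 of the 41, passed an adjusted p of 0.05, where the error is how much a difference varied between times. The lowest adjusted p was 0.109 over all features and 0.114 over the 41. At an unadjusted p under 0.05, 3363 features (12.2%) were higher with Tet and 3058 (11.1%) lower, and of the 998 named genes tested 9.62% were higher and 13.2% lower. Among the 41 list genes, 3 (7.32%) were higher and 9 (22.0%) lower. The keratin KRT71, 1 of the 9, was tested only because its arrays without Tet were above background, and among the 40 genes well above background on all 6 arrays 3 were higher and 8 lower. Over the 41, those counts were 8 and 9 without the 30 h arrays, and 1 and 3 without the 45 h arrays. At 60 h 4 of those 40 were at least 2-fold higher and 4 at least 2-fold lower, where 1.92% and 2.81% of all features, and 3.51% and 4.31% of named genes, were. The lists were written with results of these data known, so these shares are a description of the genes listed.

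Of 20 transcription factors of the transition, 3 have a named probe here. TCF4, an E-box binding factor, was not well above background on any array. SOX9, which acts with SNAI2 in some epithelia, stood at 1.77, 1.87 and 1.98 with Tet against 1.89, 1.90 and 1.88 without Tet, differences of -0.12 to 0.10. Of the 2 transition factors measured, SNAI2 had the larger difference at 45 and 60 h, but it was chosen by that difference. Other factors of the list, SNAI1, ZEB1 and TWIST1 among them, were not analysed here.

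The mesenchymal list of cytoskeletal, adhesion and matrix genes had 9 tested members besides VIM and S100A4. At an unadjusted p under 0.05, 1 was higher with Tet (COL1A1) and 1 lower (MMP9), where 12.2% and 11.1% of all features were. The list's median difference was 0.02, 0.16 and 0.20 at 30, 45 and 60 h, against 0.017, 0.026 and -0.00199 over all features. PLAU, the urokinase protease that activates plasminogen, stood at -2.00, -1.53 and -0.15 with Tet and at -1.85, -2.21 and -2.78 without Tet. Its difference at 60 h was 2.63 on the brighter probe and 2.68 on the other, close to that of SNAI2. Like SNAI2, it went up at each step with Tet and down at each step without it.

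CD44, the hyaluronan receptor, had differences of 0.04, 0.46 and 1.27. COL1A1, a chain of type I collagen, had differences of 0.26, 0.70 and 0.82, on the 1 of its 4 probes that was well above background. Its partner chain COL1A2 had differences of 0.21, -0.06 and -0.11, and N-cadherin, CDH2, of 0.02, 0.15 and 0.20. Among the remaining members, TNC, the matrix protein tenascin C, had 0.37, 0.73 and 0.06, the integrin ITGB3 had -0.35, -0.18 and 0.36, and THY1 had -0.01, 0.16 and 0.01. MMP9, a gelatinase, stood at -2.68, -5.40 and -3.49 with Tet against -1.30, -2.28 and -1.40 without Tet, or 4.25-fold lower at 60 h (mean difference -2.20 ± 0.35 SE, limma adjusted p = 0.114). On a second MMP9 probe well above background on all arrays the differences were -1.28, -3.38 and -1.39, smaller at 60 h. The first probe's level of -5.40 lay below the lowest SNAI2 level, -3.55, so its 45 h difference rests on a dim spot. With normexp correction the MMP9 mean difference was -1.25 and its limma adjusted p was 0.0361.

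As fibroblast markers, the summed signal of COL1A1, COL1A2, THY1, PDGFRB and decorin, relative to the 75th percentile, ran from 3.60 to 3.74 with Tet and from 3.27 to 3.77 without Tet, so the arms overlapped. The summed signal of the 9 kidney epithelial markers ran from 124 to 134 with Tet and from 152 to 157 without Tet, with no overlap, and was lower with Tet at each time. Taken singly, 10.4% of all tested features had the 3 arrays with Tet below the 3 without, and 21.8% were lower at all 3 times. KRT19 alone made up 69.6 to 76.1 of it with Tet and 83.2 to 91.0 without Tet, and the other 8 markers summed to 54.5 to 58.3 with Tet and 60.8 to 74.3 without Tet. Such sums mostly reflect the brightest markers. Among the 8, FXYD2 had differences of -0.20, -0.95 and -1.95, ATP1B1 of -0.14, -0.27 and -0.37, and AQP2 of 0.00, -0.20 and -0.06. Not all markers went this way, as CDH1 and OCLN had differences above 0 at 45 and 60 h, given with the epithelial genes. The part of the lower summed epithelial signal in the VIM and S100A4 differences was not tested.

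**Figure D4:**
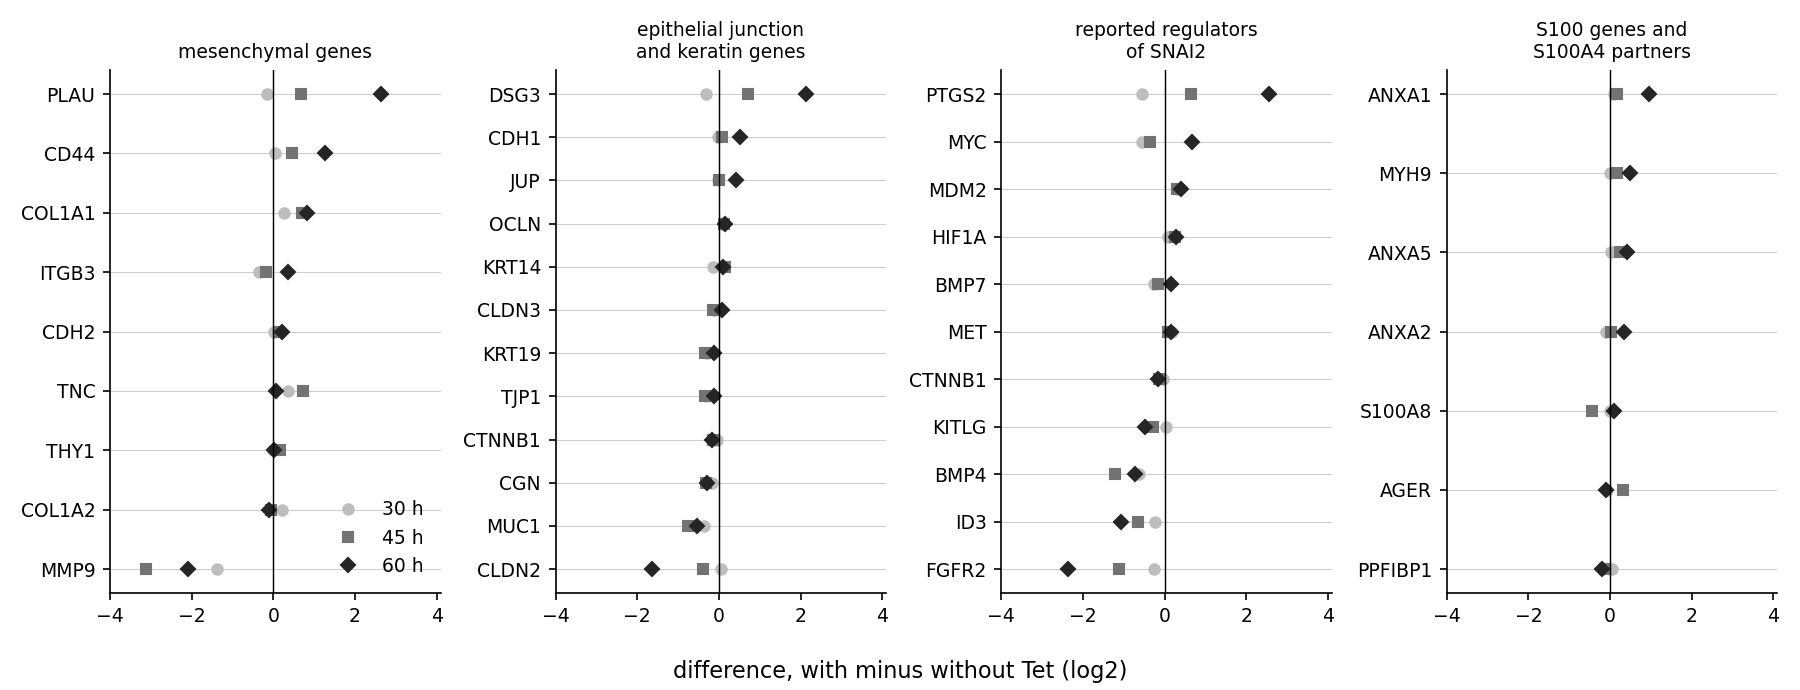
Difference in level, with minus without Tet (log2), of each tested gene of 4 lists at 30 h (light circles), 45 h (grey squares) and 60 h (dark diamonds), leaving out SNAI2, VIM and S100A4. PLAU, DSG3 and PTGS2 lie above 2 at 60 h, and MMP9 and FGFR2 below -2, while most junction genes lie near 0.

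Genes that SNAI2 is known to repress belong to the epithelial list, of which 12 members were tested. At an unadjusted p under 0.05, 0 were higher with Tet and 4 lower (TJP1, CGN, KRT19 and MUC1). Of all features 12.2% were higher and 11.1% lower, and of named genes 9.62% and 13.2%. With the slide as a term, or without the 45 h arrays, 1 gene of the list was lower. The list's median difference was -0.13, -0.14 and -0.03 at 30, 45 and 60 h. E-cadherin, CDH1, was not among the 4 lower genes. Its level was 2.43, 2.63 and 2.99 with Tet against 2.45, 2.56 and 2.49 without Tet. At 60 h, where SNAI2 was 6.04-fold higher, CDH1 had a difference of 0.51, and its other probes had 0.47 and 0.51 (mean difference 0.19 ± 0.13 SE, limma adjusted p = 0.429). Occludin, OCLN, also repressed by SNAI2 in other epithelia, had differences of 0.11, 0.12 and 0.16.

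The 4 lower genes differed by less than 2-fold at each time, MUC1 the most. The cell surface mucin MUC1 had -0.37, -0.75 and -0.53 (mean difference -0.55 ± 0.10 SE, limma adjusted p = 0.118). The tight junction adaptor CGN had -0.18, -0.32 and -0.28 and the keratin KRT19 -0.28, -0.34 and -0.13. TJP1, the tight junction scaffold ZO-1, had -0.31, -0.34 and -0.13 on its brighter probe but -0.26, 0.11 and 0.23 on the other.

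Junction genes with larger differences at 60 h lay on both sides. The desmosomal cadherin DSG3 stood at -0.28, 0.34 and 1.43 with Tet and at 0.03, -0.38 and -0.71 without Tet, or 4.40-fold higher with Tet at 60 h. CLDN2, a pore-forming claudin of leaky epithelia, stood at -0.63, -0.59 and -1.10 with Tet and at -0.69, -0.21 and 0.54 without Tet, or 3.12-fold lower at 60 h. Its differences were 0.06, -0.38 and -1.64 on that probe and -0.09, -1.05 and -2.01 on the other. Plakoglobin, JUP, had a difference of 0.42 at 60 h, with its 4 other probes between 0.27 and 0.45. The remaining members named here, CLDN3, CTNNB1 and KRT14, lay between -0.17 and 0.15 at each time on their brightest probes. Other probes reached -0.25 for CTNNB1 and 0.22 for KRT14 at 60 h.

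Genes reported to act on SNAI2, by signalling or by turnover of its protein, gave 11 tested members. At an unadjusted p under 0.05, 2 were higher with Tet (HIF1A and MDM2) and 3 lower (BMP4, ID3 and FGFR2), where 12.2% and 11.1% of all features were. The median difference was -0.24, -0.16 and 0.15 at 30, 45 and 60 h. FGFR2, a receptor of fibroblast growth factors whose epithelial isoform is lost in the transition, stood at 3.79, 3.36 and 2.53 with Tet against 4.05, 4.47 and 4.90 without Tet. It was 5.16-fold lower at 60 h, with both probes alike (-2.37 and -2.50; mean difference -1.25 ± 0.42 SE, limma adjusted p = 0.191). ID3, an inhibitor of E-box binding factors and a target of BMP signals, had differences of -0.24, -0.66 and -1.07, and the ligand BMP4 had -0.63, -1.22 and -0.71.

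MDM2, a ligase reported to act on SNAI2 protein, had differences of 0.30, 0.30 and 0.42, and the hypoxia factor HIF1A 0.09, 0.26 and 0.29. PTGS2, the inducible prostaglandin synthase, stood at 1.29, 1.46 and 2.50 with Tet and at 1.83, 0.80 and -0.05 without Tet, or 5.86-fold higher at 60 h. The transcription factor MYC had -0.56, -0.35 and 0.68, the growth factor KITLG 0.03, -0.29 and -0.47, and the hepatocyte growth factor receptor MET 0.19, 0.10 and 0.15. The ligand BMP7 had -0.26, -0.16 and 0.17. The growth factors EGF and HGF, named after their values were seen, did not enter the tests. Each was well above background on 2 of 3 arrays without Tet and on 0 of 3 with Tet. At 45 and 60 h EGF was lower with Tet by at least 1.78-fold and at least 2.65-fold, and HGF by at least 3.27-fold and at least 2.27-fold.

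S100 genes and reported partners of S100 proteins gave 7 tested members. At an unadjusted p under 0.05, 0 of them were higher and 0 lower, where 12.2% and 11.1% of all features were. At all 3 times 3 were higher with Tet and 0 lower (27.7% and 21.8% of all features). At 60 h, where S100A4 was lower with Tet, the larger differences of this list lay above 0. The nonmuscle myosin heavy chain MYH9 had differences of 0.00, 0.16 and 0.48, and annexin A2, ANXA2, had -0.10, 0.02 and 0.35. Annexin A1, ANXA1, had 0.09, 0.18 and 0.95, with its other probes at 1.11 and 1.19 at 60 h, and ANXA5 had 0.03, 0.23 and 0.40. The other S100 gene measured, S100A8, a calcium-binding protein of myeloid cells and stressed epithelia, had 0.01, -0.43 and 0.09. The liprin PPFIBP1 had 0.06, -0.14 and -0.19, and the receptor AGER -0.08, 0.32 and -0.09.

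Among intermediate filament genes other than VIM, 4 were tested. At an unadjusted p under 0.05, KRT19, given above, was lower and 0 were higher, leaving aside KRT71 (11.1% and 12.2% of all features). Lamin A/C, LMNA, the filament protein of the nuclear envelope, had 0.03, 0.12 and 0.67, with its 3 other probes between 0.29 and 0.64 at 60 h. KRT14 had -0.13, 0.15 and 0.11. KRT71, a keratin of the hair follicle, was well above background on 1 of 3 arrays with Tet and on 3 of 3 without, and with Tet it was lower by a factor of at least 2.74 (45 h) and 1.72 (60 h). DES, the muscle filament gene, and NEFH, a neurofilament gene, were not well above background on any array. VIM was thus the 1 nonkeratin cytoplasmic filament gene measured above background.

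The genes with the most similar patterns were sought among 145 other named genes that were well above background on all 6 arrays and spanned at least 1 on the log2 scale. The measure was Pearson's r over the 6 arrays, which share arms, times and slides, and it is given as a description. Nearest to SNAI2 were PLAU and CD44 (0.99 each), the haem oxygenase HMOX1 (0.98), DSG3 (0.98) and the drug efflux pump ABCB1 (0.98). ABCB1 had differences of 0.10, 1.18 and 3.05 and HMOX1 of -0.01, 0.81 and 1.71. Most opposite to SNAI2 were FGFR2 (-0.99), the imprinted RNA H19 (-0.96) and the carbonic anhydrase CA2 (-0.96). H19 had differences of -0.42, -1.42 and -2.72, and CA2 of -0.37, -1.06 and -1.77. FGFR2, H19 and CA2 went down at both steps with Tet and up at both without, as did 4.12% of all tested features. These 3 were picked as most opposite to SNAI2, so the directions largely come with that choice.

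Nearest to VIM were S100A4 (0.99), the prostaglandin E synthase PTGES (0.98), the sulfatase ARSJ (0.97), the steroid reductase SRD5A1 (0.95) and the fatty acid binding protein FABP1 (0.95). S100A4 had VIM, PTGES (0.99), ARSJ (0.98), the lectin LMAN2 (0.97) and SRD5A1 (0.96) nearest. PTGES had differences of -0.34, -0.89 and -1.08, ARSJ of -0.18, -0.53 and -0.87, and FABP1 of -0.20, -0.76 and -1.28. PTGS2, which makes the substrate of PTGES, lay on the other side of 0 at 45 and 60 h. Most opposite to VIM, and to S100A4, were the glucose transporter SLC2A1 (-0.95 and -0.94), the chemokine CCL27 (-0.92 and -0.94) and ZFAND4 (-0.92 and -0.93). SLC2A1 had differences of -0.03, 0.48 and 1.09.

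**Figure D5:**
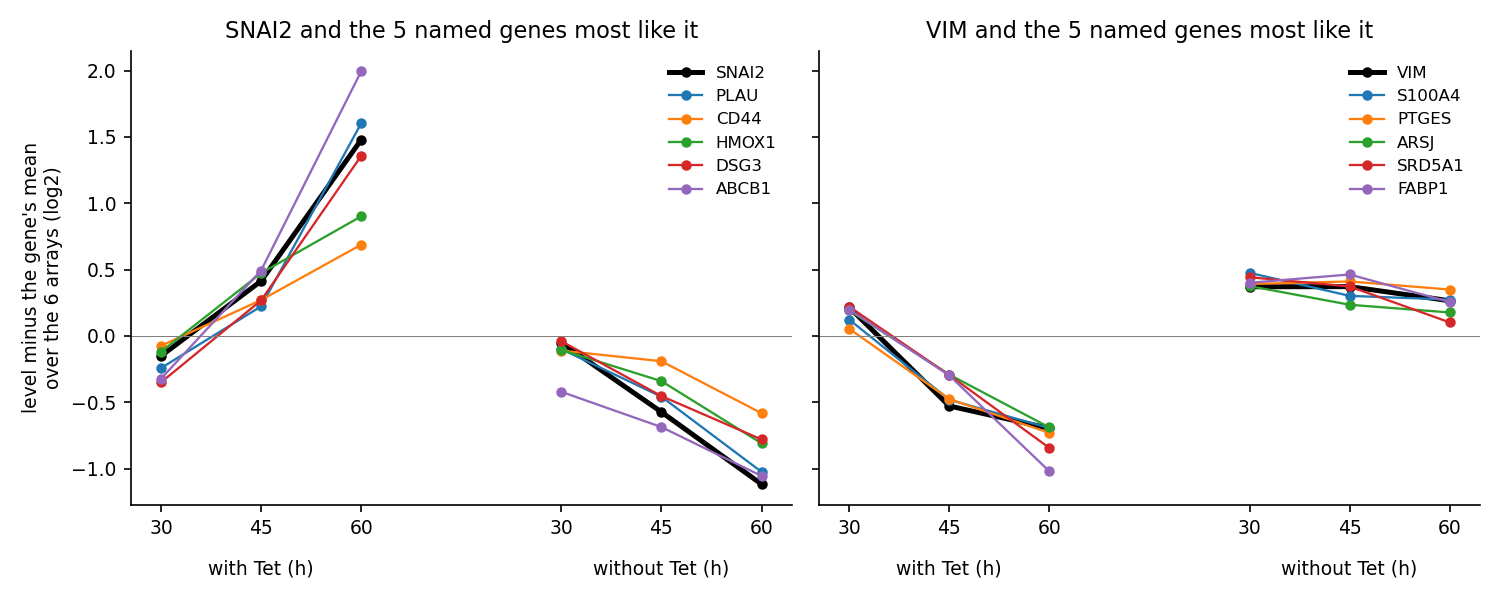
Level on each array minus the gene's mean over the 6 arrays (log2) for SNAI2 (left, black) and VIM (right, black) with the 5 named genes of highest Pearson correlation, at 30, 45 and 60 h with Tet and then without Tet. Genes like SNAI2 go up with Tet and down without, and genes like VIM go down with Tet and differ less between times without.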

How the data were processed

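Per the labels, total RNA of scribKD cells was labelled with Cy3 and hybridised to 1-colour Agilent dog arrays, 1 for each of 2 arms at 3 times. The deposited scanner files hold linear spot intensity, background-subtracted and detrended by Agilent Feature Extraction 11.5.1.1 (protocol GE1_1105_Oct12, per the file headers), not normalized across arrays. Values of the deposited series matrix are that intensity times 1 factor per array (2.30 to 2.62), with column medians of 150.9 to 171.5; what sets the factor is not stated in the labels or headers.

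Outlier spots were left out, spots of a probe averaged (19 of 43603 probes dropped), and log2 values centred on each array's 75th percentile. Accessions matched to RefSeq's dog genes (assembly UU_Cfam_GSD_1.0) gave 2325 probes a symbol. Features well above background on all 3 arrays of an arm (27581, of which 998 named) were tested with limma 3.58.1 in R 4.3.3, with time as a block and arm as the effect (2 residual degrees of freedom; two-sided; Benjamini-Hochberg). The contrast of 60 h with 30 h came from the same fit. The scanner error is the program's own, about 10% of a signal here; repeat spots within an array had a median SD of 0.074 on the log2 scale.

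SNAI2, VIM, S100A4 and the lists were chosen with earlier results of these data known; 3 list genes are not reported here and were left out of the list counts. Besides these 3, the text names list members at an unadjusted p under 0.05, up to 6 more per list by their 60 h difference, and for likeness the 5 nearest and 3 most opposite genes. CLDN3 and AGER, outside that rule, are given to complete their lists, and cell type markers are named too. Alternatives were other scaling, normexp on median spot signal (planned for the mean signal), the series matrix values, the mean of a gene's probes, other detection filters, no time term, a slide term, left-out times and a prior both trended and robust.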

Additional observations from a re-analysis of the deposited data

Results flagged for a closer look

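For SNAI2 the level went up at both steps in time with Tet and down at both steps without it, so that its change from 30 to 60 h was larger by 2.696 with Tet; the difference was not tested. Of 60 genes examined in this way 13 showed opposite directions in the arms, while 3.43% of all tested features went up with Tet and down without and 4.12% the reverse. The others up with Tet and down without were PTGS2 (3.092), ABCB1 (2.951), PLAU (2.769), DSG3 (2.446), HMOX1 (1.725), CD44 (1.234) and ITGB3 (0.7041), where the value is the change with Tet minus that without, on the log2 scale. Those down with Tet and up without were H19 (-2.296), FGFR2 (-2.10), CA2 (-1.404), ID3 (-0.8267) and the sodium pump subunit ATP1B1 (-0.2287). None of these differences was tested, and VIM and S100A4 did not show opposite steps. SNAI2 was chosen by its difference between the arms. Several other genes were named as like or opposite to SNAI2, or by their unadjusted p or 60 h difference between the arms. Such choices favour opposite steps, so 13 of 60 is a description only. Direction alone was counted, whatever the size of a step. For ATP1B1 the steps were -0.11 and -0.04 with Tet and 0.02 and 0.06 without, under the 0.20 scanner error of a VIM difference. Some steps of other genes, such as 0.04 for ITGB3 from 30 to 45 h with Tet, were small too.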

How the results depend on the processing

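The mean differences of SNAI2, VIM and S100A4 kept their direction under all alternatives run. They ranged from 0.44 to 1.79 for SNAI2, from -0.93 to -0.53 for VIM and from -0.88 to -0.57 for S100A4, the ends being set by leaving out the 30 h or 60 h arrays. Their changes with time in culture kept their direction and stayed above an adjusted p of 0.05 (limma; lowest 0.0754, for S100A4). The count of features past the adjusted threshold between the arms was 0, against 134 with normexp, 17 with no replicate block (time being the block that pairs the arms) and 16 when limma's prior was trended and robust; without 1 time it ran from 0 to 1. For time in culture the count was 2254, against 4121 with normexp (added after seeing the data), 3775 with the trended and robust prior, and 0 with no detection filter, with the slide as a term or without the 45 h arrays. Among list genes, MMP9 passed the adjusted threshold with normexp, 1 gene against 0. Counts at an unadjusted p were 3 higher and 9 lower, against 1 and 3 with the slide term; without 1 time they ran from 1 to 8 higher and from 3 to 9 lower. For the arms, a fit with slide equals leaving out the 45 h pair, which spans both slides. The SNAI2 signals, 50.2 to 299 units, were the lowest of the 3 genes and moved most with background correction.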
